A study of Mus musculus with 8 samples.

Results

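The 6 genes described here are noncoding RNAs, most of them with many counts in these libraries: the ribosomal RNA precursor Rn45s and the long noncoding RNAs Malat1, Neat1, Meg3, Miat and Snhg11. They were taken by their symbols, 6 of the 23393 named genes in the count files, and all 6 passed the filter on low counts, as did 17415 genes in all. The set was chosen by a measured value, the high share of Rn45s among the counts of 1 library, the first of the Adnp hairpin group. That share, and every value from the comparison this library belongs to, is therefore given as a description without a test.

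Reads per gene had been counted in bulk prefrontal cortex, taken from C57BL6/J mice that were 6 to 8 weeks old by the text of the series, with 8 libraries in 4 groups of 2. In the Adnp set, mice whose titles name Adnp (called shAdnp) stood against GFP controls, and in the Pogz set, mice whose titles name Pogz (shPogz) stood against a separate pair of GFP controls. All had been injected with AAV9, an adeno-associated virus, carrying a hairpin RNA in the knockdown groups and the green fluorescent protein GFP in the controls; the treatment label of both hairpin groups names ASH1L, so that group names here are those of the titles. The labels call the 2 libraries of a group biological duplicates, while the text of the series speaks of 3 knockdown mice, and the library titled as the second of shPogz carries the number 3 in its file's header. The labels give neither the promoter of the virus nor the share of cells it reached. Libraries were made from 1 µg of total RNA with ribosomal RNA depletion, so RNAs without a poly(A) tail could be counted. Total counts ranged from 27501722 to 69002749 per library. Levels are given in CPM, the usual depth-normalised count, with library sizes scaled by the trimmed mean of M values (TMM), and shares as the percent of all counts in named genes.

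The genes named in the titles were measured first as a check of the labels. Adnp stood at 137 and 111 CPM in the Adnp-set controls against 87.2 and 118 in the libraries labelled shAdnp, so the groups overlapped (log2 fold change -0.27, SE 0.19). Pogz stood at 54.4 and 53.1 CPM in the Pogz-set controls against 49.0 and 37.3 in the libraries labelled shPogz, without overlap (-0.32, SE 0.16; edgeR adjusted p = 0.667). Ash1l, named in the treatment label, stood at 364 and 301 CPM in the Adnp-set controls against 292 and 329.9 for shAdnp, and at 243 and 288 against 299 and 272 in the Pogz set, with overlapping groups. A lower level of the targeted gene was thus not established for either hairpin, and shAdnp and shPogz stand here for libraries so labelled.

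Rn45s is the transcript made by RNA polymerase I in the nucleolus, which is cleaved into the RNAs of the ribosomal subunits. Its genes lie in repeated arrays, so reads could match many copies. Counts per gene do not show which part of Rn45s the reads matched. The precursor and finished ribosomal RNA left after depletion therefore cannot be told apart in its counts. Malat1 is a nuclear RNA of splicing speckles, bodies rich in splicing factors. Neat1 is the scaffold of paraspeckles, nuclear bodies built by RNA-binding proteins such as NONO and SFPQ. Meg3 is transcribed from the maternal chromosome of the imprinted Dlk1-Dio3 domain, Miat (also named Gomafu) is a nuclear RNA of neurons, and Snhg11 is a host gene of small nucleolar RNAs.

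In the GENCODE M21 annotation of GRCm38, the assembly of the authors' mm10, 5 of the 6 genes were found. Malat1 (chromosome 19, 5795690 to 5802672, minus strand) has 1 exon in its longest transcript, and Neat1 (chromosome 19, 5824708 to 5845478, minus strand) likewise has 1, the genes lying 22.0 kb apart. Meg3 (chromosome 12, 109541001 to 109571726, plus strand) has 5 exons in its longest transcript and contains the microRNA genes Mir770 and Mir1906-1. Miat (chromosome 5, 112213228 to 112229395, minus strand) has 7, and Snhg11 (chromosome 2, 158375638 to 158386145, plus strand) has 5 and is typed there as protein coding although RefSeq lists it as a long noncoding RNA. Meg3, Miat and Malat1 each overlap a gene on the opposite strand (Gm26906, Gm26953 and Gm37376) that has no row in the files used, and the sources used here do not give the strand setting of the counting, so reads of such a partner cannot be told apart.

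Stretches of Miat and Neat1 are shown because they carry the sequence features these RNAs are known for. Miat holds copies of a 7-base repeat, TACTAAC, which matches the branch point sequence bound by splicing factor SF1. The transcript Miat-205 has 6 copies on its sense strand, and 2 of 260 noncoding transcripts of at least 5000 bases in GENCODE M21 (0.769%) hold as many, Miat-205 included. Positions 5579 to 5639 of Miat-205 hold 3 of them, in capitals:
Miat-205: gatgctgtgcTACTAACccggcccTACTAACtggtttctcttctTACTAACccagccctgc
The long form of Neat1 is known to end in U-rich tracts and an A-rich tract that fold into a triple helix in place of a poly(A) tail. The last 100 bases of Neat1-201, positions 20672 to 20771, are written as DNA with runs of at least 4 T or 4 A in capitals:
Neat1-201: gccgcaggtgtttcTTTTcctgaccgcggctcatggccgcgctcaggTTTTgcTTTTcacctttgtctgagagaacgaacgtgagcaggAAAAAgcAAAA

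Rn45s was the gene with the most counts in shAdnp replicate 1 and varied more between libraries than any other of the 6. It took 7.62% of the counts there (exact Clopper-Pearson 95% interval 7.61% to 7.63%, counting error only). Its share was 0.740% in shAdnp replicate 2. The Adnp-set controls had 0.218% and 0.321%, the Pogz-set controls 0.134% and 0.392%, and the shPogz libraries 0.627% and 0.519%. The second highest share, just outside what chose the members, was thus that of shAdnp replicate 2, and the highest was 10.3 times as large. On the CPM scale the levels were 2250 and 3331 in the Adnp-set controls, 83484 and 7415 for shAdnp, 1299 and 3848 for the Pogz-set controls, and 6094 and 4784 in shPogz. Each of the 4 hairpin libraries lay above each of the 4 GFP libraries. That order is a description only, since it includes the library that chose the genes and joins sets with separate controls. The share of all tested genes with such an order was not counted. The order of group means ran from the Pogz-set controls (2573 CPM, SD 1803, n = 2) through the Adnp-set controls (2790 CPM, SD 765, n = 2) and shPogz (5439 CPM, SD 927, n = 2) to shAdnp (45449 CPM, SD 53789, n = 2), and the control pairs overlapped.

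**Figure D1:**
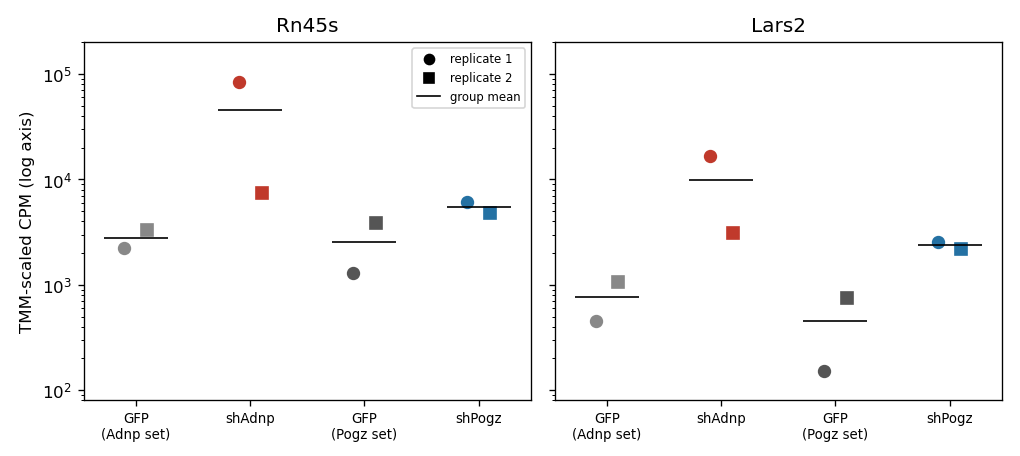
Level of Rn45s (left) and of Lars2 (right) in each library, as TMM-scaled CPM on a log axis, by group, with circles for replicate 1, squares for replicate 2 and a line at the group mean (n = 2). Both genes have their highest value in shAdnp replicate 1 (83484 and 16589 CPM) and their lowest in Pogz-set GFP replicate 1 (1299 and 151 CPM).

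For shPogz against its controls, a comparison that did not choose the genes, the log2 fold change of Rn45s was 1.08 (SE 1.18; edgeR's quasi-likelihood test, Benjamini-Hochberg adjusted p = 0.805 over all genes tested). The groups did not overlap, but neither do those of 40.3% of all tested genes, and no gene passed this test (0% of 17415, with 1167 at an unadjusted p under 0.05 and 101 called by DESeq2). The estimated biological coefficient of variation of Rn45s was 0.747, above that of 99.3% of tested genes, against a common value of 0.171. It is shared over all groups and so includes shAdnp replicate 1, the library that chose the genes. The standard error was 0.57 without that library (edgeR adjusted p = 0.654) and 0.56 with only the 4 libraries of the Pogz set (edgeR adjusted p = 0.745), at log2 fold changes of 1.09 and 1.10. The log2 fold change was 0.52 without Pogz-set GFP replicate 1 and 2.10 without Pogz-set GFP replicate 2. Between the control pairs (Pogz set over Adnp set) it was -0.12 (SE 1.17; edgeR adjusted p = 0.985). In shAdnp the value was 4.03 (SE 1.32), and 1.42 without shAdnp replicate 1, both given as descriptions.

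Among 10313 genes with a mean of at least 10 CPM, those with a pattern most like that of Rn45s over the 8 libraries were Dhrs3, Smad7, Lars2, Sdc4 and Sema4c (Pearson r from 0.94 to 0.96 on log2 CPM). The points share their libraries, and 1 library lies far from the others. Without it, Lars2, which encodes the mitochondrial leucyl-tRNA synthetase, kept an r of 0.98 with Rn45s, while the other 4 had 0.70 to 0.81. Lars2 stood at 459 and 1070 CPM in the Adnp-set controls, 16589 and 3097 for shAdnp, 151 and 748 for the Pogz-set controls, and 2559 and 2200.0 in shPogz. It took 1.51% of the counts of shAdnp replicate 1, where only Rn45s had more. Counts per gene do not show which part of Lars2 its reads matched, so they may not measure its messenger RNA alone. Why Lars2 varied with Rn45s was not tested. The count of Rn45s was 2.18 to 8.59 times that of Lars2 over the 8 libraries, a range of 3.95-fold that does not rest on shAdnp replicate 1. The level of Rn45s ranged 64.3-fold with that library, whose value chose the genes, and 5.71-fold without it. The log2 fold change of Lars2 in shPogz was 2.40 (SE 1.18; edgeR adjusted p = 0.667).

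Genes that make and process ribosomal RNA were examined beside Rn45s, and so were the RNAs of RNase P and RNase MRP, listed apart. A sum over a list varies less than its members, and the summed level of 20 genes for transcription by RNA polymerase I lay between 563 and 616 CPM in all 8 libraries, and that of 43 genes of rRNA processing and the nucleolus between 1933 and 2171 CPM. In shPogz, 0 of these 20 and 0 of these 43 passed when adjusted over all genes, with median log2 fold changes of -0.01 and -0.01, beside -0.02 over all genes. Ubtf, the activator of ribosomal RNA genes, was at 142 and 154 CPM in the Adnp-set controls, 149 and 153 for shAdnp, 141 and 136 for the Pogz-set controls, and 139 and 130.1 in shPogz. Ddx21, a nucleolar helicase, was at 46.6 and 43.8 against 51.4 and 67.3 CPM in the Pogz set (log2 fold change 0.39, SE 0.14; edgeR adjusted p = 0.667). Rpph1, the RNA of RNase P, stood at 2414 and 2901 CPM in the Adnp-set controls, 3174 and 2936 for shAdnp, 646 and 2573 for the Pogz-set controls, and 1986 and 2275 in shPogz. Rmrp, the RNA of RNase MRP, was likewise lowest in Pogz-set GFP replicate 1, at 420.4 CPM against 1067 to 1686 CPM in the other 7 libraries, and Rn45s had its own lowest level in that library.

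Malat1 was the gene with the most counts in 7 of the 8 libraries and ranked 3 in shAdnp replicate 1, behind Rn45s and Lars2. Its share of the counts lay between 0.859% and 1.32%. Levels were 11720.3 and 10594 CPM in the Adnp-set controls, 9415 and 12769 for shAdnp, 11902 and 12683 for the Pogz-set controls, and 11743 and 12148 in shPogz. The 2 shAdnp libraries were the lowest and the highest of all 8 and lay on either side of both controls. Malat1 was the steadiest of the 6 genes, with a range of 1.36-fold over the libraries and of 1.21-fold without shAdnp replicate 1. The log2 fold change was -0.04 in shPogz (SE 0.17; edgeR adjusted p = 0.953), with overlapping groups, and 0.14 between the control pairs (SE 0.17; edgeR adjusted p = 0.871). With library totals alone the value in shPogz was 0.01, a shift that the median of all genes shared (from -0.02 to 0.02). In shAdnp it was -0.01 (SE 0.17), and 0.21 without shAdnp replicate 1 and -0.24 without shAdnp replicate 2.

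**Figure D2:**
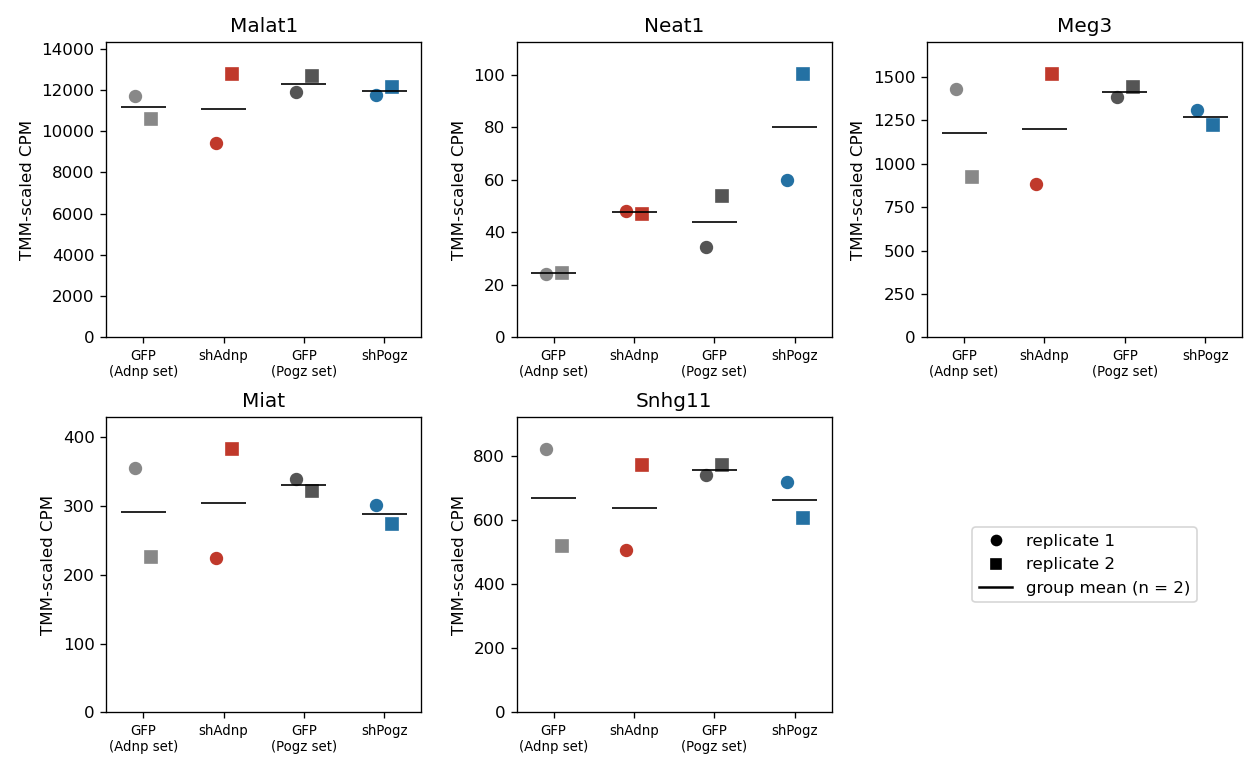
Level of Malat1, Neat1, Meg3, Miat and Snhg11 in each library, as TMM-scaled CPM on axes that start at 0, by group, with circles for replicate 1, squares for replicate 2 and a line at the group mean (n = 2). Neat1 runs from 24.3 CPM in the Adnp-set controls to 100.4 CPM in shPogz, while Meg3, Miat and Snhg11 share low values in Adnp-set GFP replicate 2 and shAdnp replicate 1.

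Neat1, the neighbour of Malat1, was the least abundant of the 6 genes and the long noncoding RNA with the widest range, 4.14-fold. It stood at 24.3 and 24.6 CPM in the Adnp-set controls, 48.3 and 47.0 for shAdnp, 34.4 and 53.8 for the Pogz-set controls, and 60.1 and 100.4 in shPogz. In each set both hairpin libraries lay above both controls. The order of group means was the Adnp-set controls (24.5 CPM, SD 0.266, n = 2), the Pogz-set controls (44.1 CPM, SD 13.7, n = 2), shAdnp (47.7 CPM, SD 0.869, n = 2) and shPogz (80.2 CPM, SD 28.5, n = 2). The Pogz-set controls and shAdnp overlapped, so that these neighbours in the order did not differ beyond their spread.

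The log2 fold change of Neat1 in shPogz was 0.86 (SE 0.27; unadjusted p = 0.016, edgeR adjusted p = 0.667), and 7.85% of tested genes had a larger change in either direction. At an unadjusted p under 0.05, 4.05% of all tested genes lay higher in this comparison, Neat1 being the only one of the 6 genes to do so, and none passed the adjusted test. DESeq2 called Neat1 (0.88, adjusted p = 0.0453), as 1 of 101 genes it called, whereas limma-voom did not (adjusted p = 0.723); over all alternatives the adjusted p ran from 0.0453 to 1. The value was 0.44 without shPogz replicate 2, 1.22 without shPogz replicate 1, 0.60 without Pogz-set GFP replicate 1 and 1.26 without Pogz-set GFP replicate 2. Between the control pairs Neat1 was higher in the Pogz set by 0.86 (SE 0.27; unadjusted p = 0.0163, edgeR adjusted p = 0.672), with no overlap, as for 43.5% of tested genes in either direction. There 0.00574% of genes, 1 gene, passed the adjusted test. The difference between the control pairs was as large as that between shPogz and its controls. In shAdnp the value was 0.96 (SE 0.27), and 0.96 to 0.99 with any 1 library left out.

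The summed level of markers of microglia, the brain's own macrophages, was lowest in the Adnp-set controls, as Neat1 was. Of 9 markers, 9 were detected and 0 stood at 0 counts, and their sum was 460 and 594 CPM in the Adnp-set controls, 1417 and 957 for shAdnp, 787 and 816 for the Pogz-set controls, and 891 and 1403 in shPogz. The level of 5 meningeal markers was 74.3 and 78.2 CPM in the Adnp-set controls, 152 and 151 for shAdnp, 78.3 and 120.4 for the Pogz-set controls, and 125 and 141 in shPogz. That of 4 striatal markers ran from 44.9 CPM in shAdnp replicate 2 to 97.3 CPM in shPogz replicate 2, where Neat1 was highest. Over the 8 libraries, which these points share, r of Neat1 with the microglial sum was 0.83, and 0.94 without shAdnp replicate 1. Its r with the meningeal sum was 0.80. Other marker sums had r of like size: 0.76 for oligodendrocyte precursors, -0.71 for interneurons, -0.70 for astrocytes and -0.68 for excitatory neurons. The rest ran from -0.21 for blood to 0.59 for striatum. Without shAdnp replicate 1, r with the meningeal sum was 0.85 for Neat1 and also for Rn45s. Within shAdnp, Neat1 stood at nearly the same level in both libraries although the microglial sum differed between them. The part of these cell types in the level of Neat1 was not tested, and in bulk tissue a changed number of cells of a type and a changed amount of RNA per cell cannot be told apart. The genes with a pattern most like that of Neat1 over the 8 libraries were Arrdc4, Map3k1, Lrp10, Myof and Tnfrsf1b (r from 0.98 to 0.99). Tnfrsf1b, a receptor for tumor necrosis factor, ran from 6.26 CPM in Adnp-set GFP replicate 1 to 33.2 CPM in shPogz replicate 2, the libraries where Neat1 was lowest and highest.

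**Figure D3:**
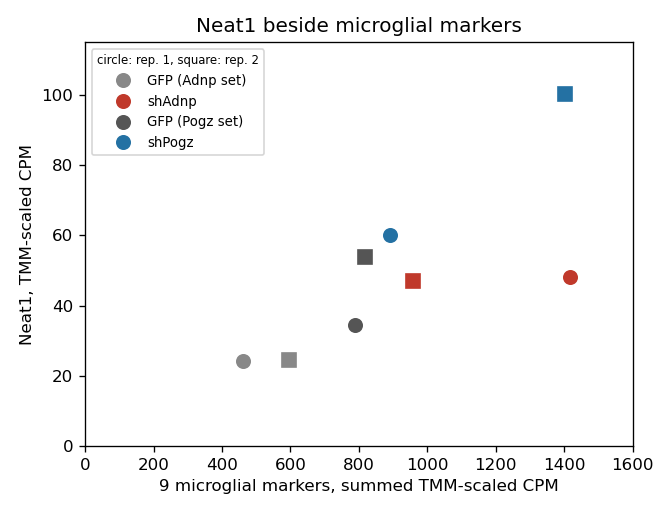
Level of Neat1 (y axis, TMM-scaled CPM) against the summed level of 9 microglial markers (x axis, TMM-scaled CPM), 1 point per library, coloured by group. The Adnp-set controls are lowest on both axes, and shAdnp replicate 1 has the highest marker sum (1417 CPM) at a Neat1 level of 48.3 CPM.

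The genes of the protein partners of these nuclear bodies were examined beside Neat1. Of 27 paraspeckle protein genes, 0 passed in shPogz when adjusted over all genes (median log2 fold change -0.04, beside -0.02 over all genes). At an unadjusted p under 0.05 there were 0 of 27 in either direction. Matr3, a nuclear matrix protein, was the most abundant, at 647 and 663 CPM in the Pogz-set controls and 672 and 653 in shPogz. Of 28 speckle and splicing factor genes, 0 passed, and their median was 0.05. Srsf4, a splicing factor, was at 38.6 and 32.5 against 30.7 and 27.3 CPM (log2 fold change -0.29, SE 0.12; edgeR adjusted p = 0.667). Qk, an RNA-binding protein of glia, was at 424 and 449 against 444 and 499 CPM. Among 25 other long noncoding RNAs, 0 passed when adjusted over all genes, with a median of -0.03. Tug1 had the smallest p of that list, at 112 and 126 against 148 and 180 CPM (log2 fold change 0.46, SE 0.12; edgeR adjusted p = 0.667).

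Meg3, Miat and Snhg11 had nearly the same pattern over the libraries. Meg3 stood at 1431 and 924 CPM in the Adnp-set controls, 881 and 1517 for shAdnp, 1387 and 1441 for the Pogz-set controls, and 1312 and 1223 in shPogz. In both groups of the Adnp set 1 library was high and the other low, so the groups overlapped widely, whereas the libraries of the Pogz set lay close together.

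Miat was at 356 and 226 CPM in the Adnp-set controls, 225 and 383 for shAdnp, 339 and 322 for the Pogz-set controls, and 302 and 274 in shPogz. Snhg11 was at 821 and 518 CPM, 506 and 771 CPM, 740.4 and 772 CPM, and 718 and 607 CPM in the same order. Adnp-set GFP replicate 2 and shAdnp replicate 1 were thus the lowest libraries for each of the 3 genes. The count of Meg3 was 3.92 to 4.48 times that of Miat and 1.74 to 2.01 times that of Snhg11 in every library, ratios that do not depend on the scaling of the libraries. Their pairwise r over the 8 libraries was 0.96 to 0.97, and 0.94 to 0.96 without shAdnp replicate 1. Of the other members, Malat1 had r from 0.81 to 0.92 with these genes, and Neat1 from -0.07 to 0.11.

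In the Adnp set, markers of oligodendrocytes, the myelinating cells, stood high in the libraries where these genes stood low. The sum of 6 markers was 2458 and 3670.0 CPM in the Adnp-set controls, 3942 and 1929 for shAdnp, 2482 and 2787 for the Pogz-set controls, and 2850.2 and 4174 in shPogz. That of 6 excitatory neuron markers was 3558 and 3173 CPM, 2879 and 3637 CPM, 2739 and 3211 CPM, and 2957 and 2004 CPM in the same order. In shPogz replicate 2, where the oligodendrocyte sum was highest and the neuronal sum lowest, Meg3, Miat and Snhg11 were the lowest of the Pogz set but above the low libraries of the Adnp set. The part of the tissue's makeup in these levels was not tested.

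**Figure D4:**
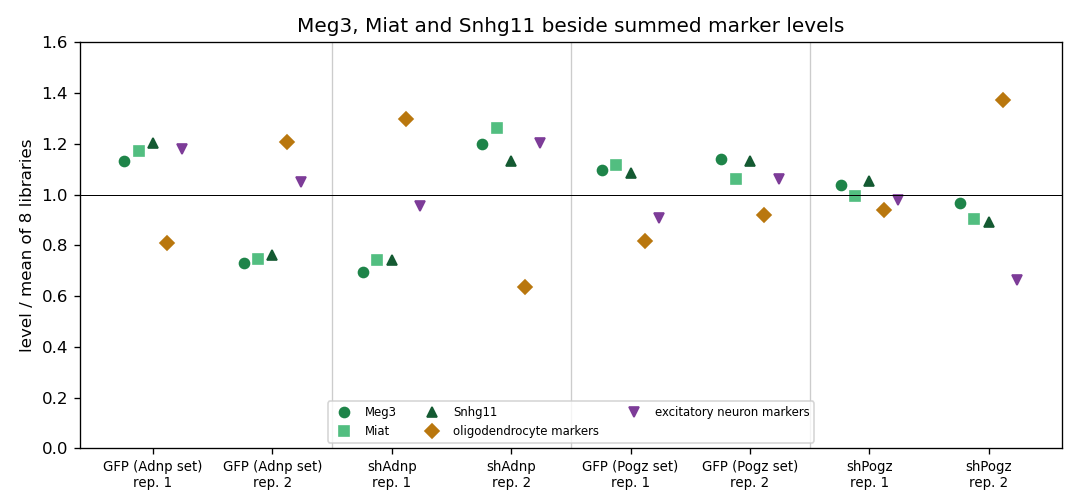
Levels of Meg3, Miat and Snhg11 and summed levels of 6 oligodendrocyte and 6 excitatory neuron markers in each library, each divided by its own mean over the 8 libraries (y axis, no unit; 1 is the mean). The 3 genes lie close together in every library, lowest in Adnp-set GFP replicate 2 and shAdnp replicate 1, where the oligodendrocyte markers lie above their mean.

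In shPogz each of the 3 genes lay below both controls, by small amounts that did not pass the test. The log2 fold change was -0.16 for Meg3 (SE 0.27; edgeR adjusted p = 0.877). It was -0.20 for Miat (SE 0.28; edgeR adjusted p = 0.849) and -0.19 for Snhg11 (SE 0.25; edgeR adjusted p = 0.837). Non-overlapping lower groups were found for 21.3% of all tested genes in this comparison. Between the control pairs the values were 0.26, 0.18 and 0.18 in the same order (SE 0.28, 0.28 and 0.25; edgeR adjusted p = 0.847, 0.897 and 0.890), with overlapping groups, and all 3 changed sign without Adnp-set GFP replicate 2 (-0.02, -0.11 and -0.12). In shAdnp the values were 0.03, 0.06 and -0.07 (SE 0.27, 0.28 and 0.25). Without shAdnp replicate 2 these became -0.41, -0.37 and -0.40, and without Adnp-set GFP replicate 1 they became 0.39, 0.44 and 0.32.

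**Figure D5:**
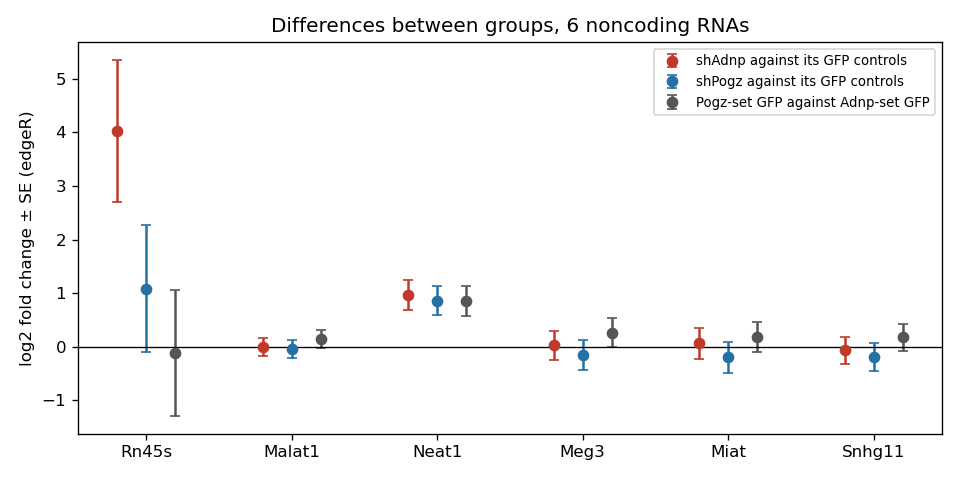
Log2 fold change of the 6 genes in 3 comparisons (edgeR, all 8 libraries in the fit), with bars for the standard error. Neat1 lies between 0.86 and 0.96 in each comparison, Rn45s has the widest bars, and the other 4 genes lie between -0.20 and 0.26.

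In shPogz, 5 of the 6 genes, all but Malat1, had groups that did not overlap, beside 40.3% of all tested genes, and 3 of these lay lower, beside 21.3%. The 3 lower genes, Meg3, Miat and Snhg11, varied together over the libraries and are not 3 separate observations. At an unadjusted p under 0.05, 1 of the 6 genes lay higher, Neat1, and 0 lower, 1 in either direction. Over all tested genes 2.65% lay lower and 6.70% in either direction. Between the control pairs, 2 of the 6, Malat1 and Neat1, lay higher in the Pogz set without overlap (21.2% of all tested genes) and 0 lower (22.3%). There 1 of the 6, Neat1, was higher at an unadjusted p under 0.05 (4.65% of all tested genes) and 0 lower (2.70%), or 7.35% of all tested genes in either direction. In shAdnp, whose values chose the genes, 2 of the 6, Rn45s and Neat1, lay higher without overlap and 0 lower, and over all tested genes the shares were 20.4% and 21.0%, or 41.5% in either direction. The Pogz-set controls enter both tested comparisons, so the 2 are not independent.

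Genes most like Meg3 over the 8 libraries were Cherp, Atxn2l, Mettl17, Wbp7 and Snhg11 (r from 0.97 to 0.99). Those most like Snhg11 were led by Srrm2, a scaffold protein of nuclear speckles (r = 0.99), at 439 and 302 CPM in the Adnp-set controls, 279 and 414 for shAdnp, 415 and 398 for the Pogz-set controls, and 390 and 340.3 in shPogz. Those most like Miat were Lrrc45, Ankrd52, Wbp7, Meg3 and Arid1a (r from 0.97 to 0.98), and those most like Malat1 included Pan2, Lrrc16a, Mettl17 and Phka2 (r from 0.96 to 0.98). All these points share the same 8 libraries.

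Among the imprinted neighbours of Meg3, Rian, a noncoding RNA of the same domain that is also made from the maternal chromosome, was at 657 and 607 CPM in the Adnp-set controls, 605 and 579 for shAdnp, 749.9 and 595 for the Pogz-set controls, and 616 and 572 in shPogz. The Meg3 count was 1.46 to 2.62 times that of Rian, lowest in shAdnp replicate 1 and highest in shAdnp replicate 2. Of 9 genes listed for this domain other than Meg3, Rian among them, 8 lay below 0 in shPogz and 0 passed when adjusted over all genes. Their median log2 fold change was -0.18, beside -0.02 over all genes, of which 53.6% lay below 0. Whether each listed gene is imprinted was not checked, and genes of 1 domain may not be separate observations. Of the 13 other host genes of small nucleolar RNAs that were tested, 0 passed in shPogz. Gas5, the most abundant of them, was at 85.0 and 80.7 CPM in the Adnp-set controls and 92.5 and 82.6 in shAdnp.

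The promoters of Meg3, Miat and Snhg11 (RefSeq, GRCm38.p6, 250 bases before to 50 bases after the start) are shown because these 3 genes varied together over the libraries. Capitals mark matches to 4 motifs on either strand, overlapping matches included. The first, TGACGT, is part of the cyclic AMP response element and occurs in 7.51% of 32851 promoters of this length. The TATA box letters TATAAA occur in 13.6% of them. The CCAAT box letters occur in 37.4%, and CCGCCC, part of a GC box, occurs in 35.7%.
Meg3, chr12:109540746-109541045, plus strand: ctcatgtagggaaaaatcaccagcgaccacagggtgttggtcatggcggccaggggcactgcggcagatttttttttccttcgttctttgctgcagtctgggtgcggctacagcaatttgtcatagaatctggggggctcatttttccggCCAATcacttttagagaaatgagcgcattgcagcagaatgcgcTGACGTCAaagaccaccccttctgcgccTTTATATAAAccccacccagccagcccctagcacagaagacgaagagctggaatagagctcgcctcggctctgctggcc
Miat, chr5:112228899-112229198, minus strand: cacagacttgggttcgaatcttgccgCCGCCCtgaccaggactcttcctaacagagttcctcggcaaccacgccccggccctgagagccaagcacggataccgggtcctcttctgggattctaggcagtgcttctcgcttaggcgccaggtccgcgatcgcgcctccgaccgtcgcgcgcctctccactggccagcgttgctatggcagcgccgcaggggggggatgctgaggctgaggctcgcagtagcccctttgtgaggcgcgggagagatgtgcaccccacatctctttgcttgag
Snhg11, chr2:158375463-158375762, plus strand: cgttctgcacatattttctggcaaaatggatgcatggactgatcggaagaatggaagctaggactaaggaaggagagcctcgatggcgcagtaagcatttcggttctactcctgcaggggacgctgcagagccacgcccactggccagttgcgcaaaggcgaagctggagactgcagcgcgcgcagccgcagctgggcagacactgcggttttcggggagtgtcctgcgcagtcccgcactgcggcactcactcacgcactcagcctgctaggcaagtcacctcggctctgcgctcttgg
The Meg3 promoter held 2 matches to the cyclic AMP response element letters, 2 to those of the TATA box and 1 to those of the CCAAT box. The 2 cyclic AMP response element matches overlap on opposite strands of 1 stretch, and so do the 2 TATA box matches. That of Miat held 1 match to the GC box letters, and no match to the 4 motifs was found in that of Snhg11. The Malat1 promoter, not shown, held 2 matches to the cyclic AMP response element letters, counted over both strands, and 0 to the other 3 motifs. A match is a description of the letters and not a binding site.

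Levels can be set between genes only per length, and the sources used here do not give the lengths of the authors' gene models. Divided by the longest GENCODE transcript, the mean level over the 8 libraries was 1664 CPM per kilobase for Malat1, 116 for Snhg11, 86.9 for Meg3, 33.1 for Miat and 2.36 for Neat1. A shorter model, such as that of the short form of Neat1, would raise these values. All 6 markers of excitatory neurons and all 6 of interneurons were detected in these libraries, and 4 choroid plexus markers summed to at most 8.85 CPM. Markers of such broad cell types cannot show that the tissue was prefrontal. All 4 striatal markers lay higher in shPogz without overlap. Over all tested genes, 40.3% had groups that did not overlap, counted in either direction, and 21.3% lay lower without overlap. Their median log2 fold change was 1.01, and 0 of the 4 passed when adjusted over all genes.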

How the data were processed

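The authors deposited unnormalised read counts, 1 file per library, keyed by gene symbol. STAR, featureCounts, DESeq2 and the mm10 build are named per the submitters' processing notes, while Cutadapt and TopHat2 appear per the labels' protocols. The sources used here give no versions, no strand setting and no treatment of multiply mapped reads. Rn45s, whose copies are repeated, and any gene that shares sequence with another are therefore uncertain. In each file 25 identifiers had become date serial numbers (0.306% to 0.337% of counts) and 2 rows were blank; both were left out.

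The fit was made with edgeR 4.0.16 under R 4.3.3: filterByExpr with a minimum count of 10, TMM scaling, and a robust quasi-likelihood fit with 1 mean per group over 8 libraries (4 residual degrees of freedom), adjusted by Benjamini-Hochberg at 0.05 over all 17415 genes. The script was tested on simulated data. Standard errors of the edgeR fit were taken as the absolute log2 fold change divided by the square root of the quasi-likelihood F statistic. For shAdnp they are given as a description, without a p-value. Members and lists were chosen with earlier results of these data known. Genes named from a list are among its 3 most abundant members and the 2 with the smallest p in shPogz; like genes are the 5 with the highest r on log2 CPM (prior count 2), of which 1 is not reported here. Genes picked after their values were seen are Mir770, Mir1906-1 and the antisense partners, named from the annotation, and Lars2 beyond its rank by r. Alternatives used DESeq2 1.42.0 and limma 3.58.1 (voom), other scalings and filters, 4 libraries, a replicate block and each library left out. The 2 libraries of a group were counted as separate samples because the labels call them duplicates of the biological kind. Their counts spread beyond sampling noise (chi-square divided by its degrees of freedom, 28.0 to 274), as separate preparations of 1 sample also could. The 274 was that of shAdnp, where it includes the gap in Rn45s that chose the genes. The other groups had 28.0 to 48.2. Each p-value borrows its spread from other genes and groups and measures only the spread between these samples, and a permutation test of 2 against 2 could not reach 0.05.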

Additional observations from a re-analysis of the deposited data

How the results depend on the processing

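Of 339 values of the 6 genes under alternatives, 320 kept their direction and their side of the threshold, or moved by less than the spread between replicates where no test was made. DESeq2 called 101 genes in shPogz against its controls (edgeR 0, and 1167 at an unadjusted p under 0.05) and 73 between the control pairs (edgeR 1), and gave Neat1 0.88 in shPogz (adjusted p = 0.0453). Malat1 in shPogz turned to 0.0056 with library totals alone and to 0.010 with totals without Rn45s, while the median of all genes moved in like amount, from -0.022 to 0.024 and 0.028. Without a low-count filter 6 genes were called between the control pairs. Removing Rn45s and Lars2 before the fit, chosen after seeing the data, changed no call of the 5 other genes.

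With each library left out in turn, genes called ran from 0 to 153 in shPogz, the 153 without shPogz replicate 1, and from 0 to 6 between the control pairs. In shAdnp the log2 fold changes ran from 1.42 to 4.92 for Rn45s, -0.24 to 0.21 for Malat1, -0.41 to 0.39 for Meg3, -0.37 to 0.44 for Miat and -0.40 to 0.32 for Snhg11. In shPogz Malat1 ran from -0.066 to 0.044. It turned positive without Pogz-set GFP replicate 2 (0.044) and without shPogz replicate 1 (0.022). Between the control pairs Rn45s ran from -1.12 to 0.47, turning positive without Adnp-set GFP replicate 2 (0.19) and without Pogz-set GFP replicate 1 (0.47). Meg3, Miat and Snhg11 ran there from -0.018 to 0.63, -0.11 to 0.56 and -0.12 to 0.56, each negative only without Adnp-set GFP replicate 2. A group left with 1 library is assumed to vary like the others. For the values that changed in these ways, the cause was not tested.

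With the replicate number as a block, 26 genes were called in shPogz and 18 between the control pairs, and none of the 6 genes was among them. Replicate differences correlated at -0.01 within the Adnp set, 0.05 within the Pogz set and 0.15 between the control pairs, and from -0.08 to 0.31 over the 6 pairs of groups. The labels name no litter, batch or day shared by a number, and the second shPogz library has the number 3 in its file, so the numbers were not taken to pair the samples.

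Shares barely depend on the denominator, except in shAdnp replicate 1, where Malat1 had 0.859% of all counts and 0.93% of those other than Rn45s. Neat1, the member with the fewest counts, had 974 to 3832 per library.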
